A study of Rattus norvegicus with 6 samples.

Results

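The genes described here are 10 immediate early response genes: the early growth response factors Egr1, Egr2 and Egr3, the orphan nuclear receptors Nr4a1, Nr4a2 and Nr4a3, the immediate early response genes Ier2, Ier3 and Ier5, and the Krüppel-like factor Klf4. They were taken by symbol from an expression table of 34257 genes, and all 10 were found, each in 1 row. The RNA came from ventricular heart muscle cells of newborn rats kept in culture. Of the 6 libraries, 3 came from cells given vehicle, whose composition the labels do not state, and 3 came from cells exposed for 24 h to 1 µM perhexiline. Perhexiline is an antianginal drug that blocks carnitine palmitoyltransferase, the gate for long-chain fatty acids into mitochondria. Nothing in the labels says whether the 3 libraries of a group were separate cultures or animals, so p-values here measure the spread between these libraries, which may be technical.

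Immediate early genes are switched on within minutes of a growth factor, stress or calcium signal, without new protein synthesis. Kinase cascades activate factors already bound at their promoters, above all serum response factor with its ETS partners at CArG boxes and CREB at cyclic AMP response elements (CRE). Their mRNAs are short-lived, so the transcripts usually fade soon after the signal ends. In heart muscle they respond to stretch, catecholamines and hypertrophic hormones, and the factors they encode drive later gene programmes.

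With perhexiline, 4 of the 9 members that could be tested rose and none fell. The rises were those of Ier3, Klf4, Nr4a1 and Ier2. Levels are the FPKM values that the authors deposited. They scale fragments by gene length and by a factor per library, and so allow genes to be compared. That factor differed by -0.941% to 0.318% from a factor based on median fragment ratios between libraries. From total fragments it differed by -3.40% to 2.89%. Log2 differences were taken after adding 1 to each FPKM, so changes of low genes are understated. A gene was tested with limma where at least 3 libraries reached an FPKM of 1, and it is said to have risen or fallen at a Benjamini-Hochberg adjusted p under 0.05 over all 13460 genes tested. Of those genes, 478 (3.55%) rose and 418 (3.11%) fell. Egr3 was below the filter, and the 9 others exceeded an FPKM of 1 in all 6 libraries. At an unadjusted limma p under 0.05 all 9 tested members were higher, against 13.4% of tested genes. The 3 perhexiline libraries lay above the 3 vehicle libraries for 9 of the 10 members, all but Egr2, against 17.0% of tested genes. The median log2 difference of the 9 members was 0.50, against 0.01 for all tested genes. In bulk RNA such as this, fewer cells of a type and less RNA per cell cannot be told apart.

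**Figure D1:**
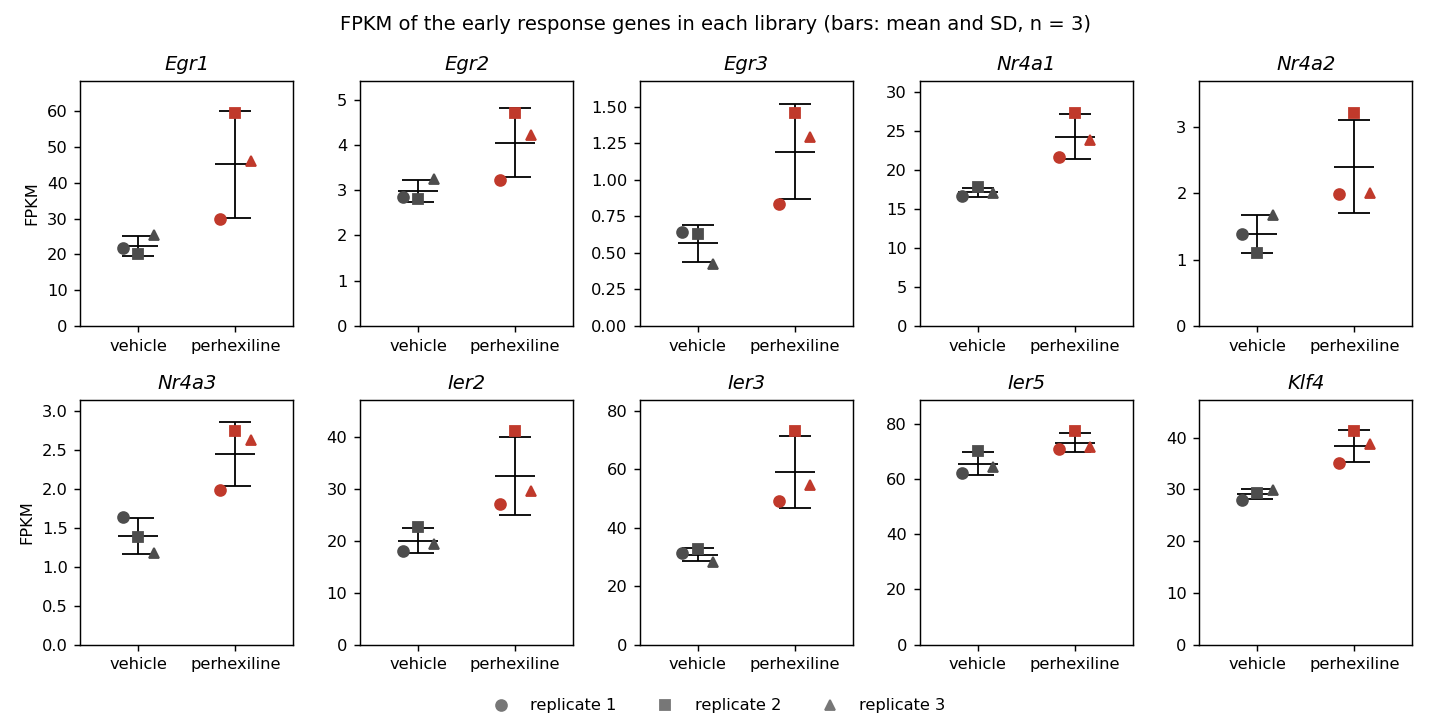
FPKM (vertical axes, from 0) of each gene in the 3 vehicle (grey) and 3 perhexiline (red) libraries, with marker shapes for the replicate number and bars for the mean ± SD. Perhexiline replicate 2 (square) is the highest library in all 10 panels, and only for Egr2 does a perhexiline library lie within the vehicle range.

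Calls changed when 1 library was left out. Those over all genes numbered 896 in the main fit, 117 without vehicle replicate 1 and 142 without vehicle replicate 2. They numbered 125 without perhexiline replicate 2 and 87 without perhexiline replicate 3. Without vehicle replicate 3 or perhexiline replicate 1 they numbered 841 and 840. The log2 difference of Ier3 ran from 0.74 to 1.02 over these 6 fits. Ier3 missed the threshold in the fits lacking vehicle replicate 1 (limma adjusted p = 0.0634), vehicle replicate 2 (0.0573) or perhexiline replicate 3 (0.062). Klf4 and Nr4a1 lost theirs in the same 3 fits and without perhexiline replicate 2, their highest limma adjusted p being 0.0872 and 0.0914. Ier2 kept its call only in the fit without perhexiline replicate 1, its limma adjusted p reaching 0.141 elsewhere. No member rose in the fits lacking vehicle replicate 1, vehicle replicate 2 or perhexiline replicate 3, and 1 rose where perhexiline replicate 2 was dropped.

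The EGR factors are zinc finger proteins that bind GC-rich sites. Egr1, the best known of them and an early responder to hypertrophic stimuli (chromosome 18, 27657628 to 27661429, in the coordinates of the table, which names no build for any member), stood at 21.7, 20.1 and 25.4 FPKM in the vehicle libraries. In the perhexiline libraries it stood at 29.7, 59.5 and 46.1 FPKM. The groups did not overlap, but the perhexiline libraries differed widely among themselves. The means were 22.4 ± 2.71 and 45.1 ± 14.9 FPKM (± gives the SD over 3 libraries, here and below), a ratio of 2.02. Its log2 difference, 0.93 ± 0.224 (SE), had the highest value among the tested members and yet just missed the threshold (limma adjusted p = 0.0515). It passed without perhexiline replicate 1 (limma adjusted p = 0.0149), with a mean FPKM of at least 5 as the filter (0.0316), under total-fragment scaling (0.0418) and with limma-voom on recovered fragments (0.0127). In the 11 other alternative fits Egr1 did not pass, and over all 15 its adjusted p by limma ran from 0.0127 to 0.144.

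Egr2, known as Krox20 for its part in myelination and hindbrain patterning (chromosome 20, 22454463 to 22459025), had 2.86, 2.81 and 3.25 FPKM with vehicle and 3.22, 4.71 and 4.22 FPKM with perhexiline. Perhexiline replicate 1 lay inside the vehicle range and the 2 others above it. The log2 difference was 0.34 with a 95% interval of 0.04 to 0.64, and Egr2 did not pass (limma adjusted p = 0.156). Egr3 (chromosome 15, 51756736 to 51760722) was the lowest of the 10. It had 0.643, 0.627 and 0.422 FPKM with vehicle and 0.831, 1.46 and 1.29 FPKM with perhexiline. All 3 perhexiline libraries were higher than the vehicle libraries, on only 16 to 26 fragments per vehicle library and 39 to 62 per perhexiline library. Fitted with no filter on low values, Egr3 had a log2 difference of 0.48 (95% interval 0.14 to 0.82) and did not pass (limma adjusted p = 0.154).

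The promoters of Egr1 and Egr2 are shown because both carry the elements through which serum and cyclic AMP signals are known to act on early genes. They are the 250 bases before the RefSeq start in build GRCr8, printed 5′ to 3′ on the strand of the gene. Egr1 is at chr18:26736828-26737077 on the plus strand, and Egr2 is at chr20:21054442-21054691 on the minus strand. Capitals mark CArG boxes and the CRE core CGTCA, searched on both strands.
Egr1: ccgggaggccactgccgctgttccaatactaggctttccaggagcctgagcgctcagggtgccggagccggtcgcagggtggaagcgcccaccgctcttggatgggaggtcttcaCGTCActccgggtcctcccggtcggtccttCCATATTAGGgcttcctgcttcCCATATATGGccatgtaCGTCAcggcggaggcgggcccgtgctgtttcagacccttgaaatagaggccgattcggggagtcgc
Egr2: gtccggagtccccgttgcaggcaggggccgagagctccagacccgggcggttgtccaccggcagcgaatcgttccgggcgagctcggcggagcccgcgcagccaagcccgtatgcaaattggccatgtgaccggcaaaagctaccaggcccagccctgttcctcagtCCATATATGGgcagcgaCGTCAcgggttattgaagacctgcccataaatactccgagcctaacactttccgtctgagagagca
Counted from the start site, Egr1 had CArG boxes at -105 to -96 and -83 to -74, and Egr2 had 1 at -83 to -74. In both promoters a CRE core stood at -66 to -62, with 7 bases between it and the nearer CArG box. A CArG box and a CRE core at any spacing occurred in 91 of 33469 promoter windows of 300 bases (0.272%). The 7-base spacing was taken from Egr1 and Egr2 themselves. It was searched as CGTCA 7 bases after a CArG box, read on either strand, and TGACG in that place was not counted. So defined, it occurred in 4 windows. Besides Egr1 and Egr2 these were the windows of an unnamed locus and of Dusp5, a phosphatase that inactivates ERK, named here after this match was seen. Dusp5 had 14.3 ± 1.94 FPKM with vehicle and 17.5 ± 0.705 with perhexiline and did not pass (limma adjusted p = 0.119).

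The NR4A receptors need no ligand, and in muscle they act on glucose and fatty acid metabolism. Only their RNA was measured here, and their activity was not. Nr4a1, also called Nur77 (chromosome 7, 142905758 to 142920216), was the most abundant of the 3. It stood at 16.6, 17.8 and 17.0 FPKM with vehicle and at 21.6, 27.3 and 23.8 FPKM with perhexiline. The vehicle libraries lay close together (coefficient of variation 3.36%) and the perhexiline libraries less so (11.8%). The groups did not overlap. The rise from 17.2 ± 0.576 to 24.3 ± 2.87 FPKM was 0.47 on the log2 scale, with an SE of 0.086 (limma adjusted p = 0.0274).

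Nr4a2, or Nurr1, known for its role in dopamine neurons (chromosome 3, 43111240 to 43119159), had 1.38, 1.10 and 1.67 FPKM with vehicle and 1.99, 3.21 and 2.01 FPKM with perhexiline. Perhexiline replicate 2 stood apart and the 2 other perhexiline libraries lay close above the vehicle range. Its log2 difference of 0.50 had a 95% interval of 0.10 to 0.90 (limma adjusted p = 0.12). Nr4a3, or NOR-1 (chromosome 5, 63781801 to 63821637), had 1.64, 1.38 and 1.17 FPKM with vehicle and 1.99, 2.74 and 2.62 FPKM with perhexiline, again with no overlap. Its log2 difference of 0.52 (95% interval 0.21 to 0.84) did not pass (limma adjusted p = 0.0614), and it passed in 2 of 14 alternative fits, under total-fragment scaling (0.0463) and with limma-voom (0.0156). Nr4a3 passed in none of the 6 fits that left out 1 library, where its limma adjusted p ran from 0.0513 to 0.196. On the fragment scale of limma-voom, which adds no FPKM of 1, the log2 differences of Nr4a2 and Nr4a3 were 0.76 and 0.79. Both rested on few fragments, 57 to 99 per vehicle library and 116 to 201 per perhexiline library.

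The Nr4a1 promoter is shown for its repeated CRE cores. It lies at chr7:134259888-134260137 on the plus strand of GRCr8, in the same form as above.
Nr4a1: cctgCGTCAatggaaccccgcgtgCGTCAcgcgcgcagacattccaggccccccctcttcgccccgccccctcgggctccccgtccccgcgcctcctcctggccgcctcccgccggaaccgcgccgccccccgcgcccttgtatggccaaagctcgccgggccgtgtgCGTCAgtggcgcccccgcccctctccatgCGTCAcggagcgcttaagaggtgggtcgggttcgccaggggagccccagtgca
It held 4 CRE cores and no CArG box, the cores starting at -246, -226, -82 and -53. The printed stretch was 74.8% G and C, against 63.2% for Egr1 and 62.0% for Egr2. CGTCA contains a CG pair, so its frequency depends on base composition, for which the shares of promoters given here were not matched.

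The IER genes encode small proteins with little resemblance to other families. Ier3, also called IEX-1, an NF-kB and p53 target that affects survival under stress (chromosome 20, 3438798 to 3440769), had the smallest adjusted p of the 10. It stood at 31.5, 32.7 and 28.2 FPKM with vehicle and at 49.3, 73.0 and 54.8 FPKM with perhexiline. The lowest perhexiline library was well above the highest vehicle library. The means were 30.8 ± 2.33 and 59.0 ± 12.4 FPKM, a 1.92-fold rise, or 0.90 on the log2 scale with an SE of 0.136 (limma adjusted p = 0.0189).

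Ier2, a nuclear protein induced by growth factors (chromosome 19, 25774143 to 25775659), stood at 18.0, 22.7 and 19.3 FPKM with vehicle and at 27.0, 41.1 and 29.5 FPKM with perhexiline. It rose 1.62-fold, or 0.66 on the log2 scale with an SE of 0.154, and passed narrowly (limma adjusted p = 0.0492). The deposited table lists Ier2 as a pseudogene, whereas RefSeq lists it as protein coding, so reads shared with a copy cannot be told apart. Ier5, a regulator of heat shock factor 1 (chromosome 13, 72742210 to 72744303), had the highest level of the 10. Its values were 62.2, 70.0 and 64.2 FPKM with vehicle and 70.7, 77.1 and 71.4 FPKM with perhexiline. The groups did not overlap, but the gap was narrow. Its log2 difference was 0.16, with a 95% interval of 0.01 to 0.30, and it did not pass (limma adjusted p = 0.161).

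The Ier2 promoter is shown because it alone of the 7 member promoters at hand held the full 8-base CRE, TGACGTCA, found in 1.83% of all windows. It lies at chr19:40399123-40399372 on the plus strand of GRCr8. The deposited coordinates place Ier2 on the minus strand of chromosome 19, and whether this window belongs to the measured gene was not tested.
Ier2: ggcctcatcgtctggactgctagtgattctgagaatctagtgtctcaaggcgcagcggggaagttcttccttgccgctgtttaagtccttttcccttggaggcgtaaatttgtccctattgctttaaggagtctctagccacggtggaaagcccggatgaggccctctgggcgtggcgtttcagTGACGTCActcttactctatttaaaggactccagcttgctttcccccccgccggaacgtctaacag
The element lay at -66 to -59, with CGTCA on the strand of the gene at -63 to -59. In Egr1 and Egr2 a CGTCA on that strand lay at -66 to -62, and Egr1 had a further core at -135 to -131. RefSeq windows were matched for 7 members, and were not used for Egr3, Nr4a3 and Ier3. A CRE core occurred in 5 of the 7 (Egr1, Egr2, Nr4a1, Nr4a2 and Ier2), against 21.2% of all windows, and a CArG box in 2, against 1.64%. The letters TATAAA were found in Ier5 and Klf4 and in 14.2% of windows. The EGR site GCGTGGGCG, the NR4A site AAAGGTCA and the AP-1 site TGACTCA, present in 0.544%, 1.43% and 4.63% of windows, were found in none of the 7. A match describes letters in the window and is not a measured binding site. The only core of Nr4a2 lay at -8 to -4. Whether the RefSeq starts are those used in these cells was not tested, so a window need not be the active promoter.

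**Figure D2:**
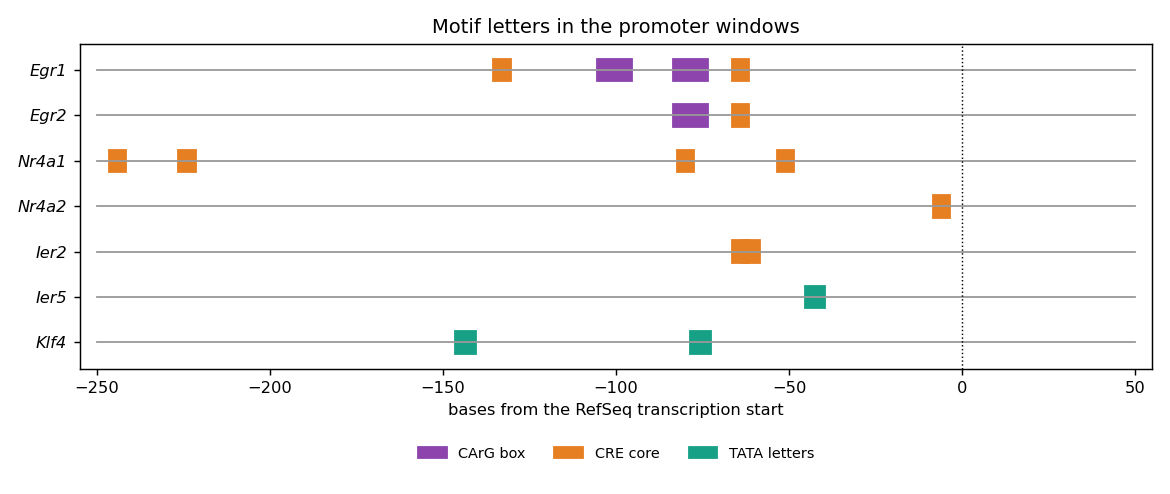
Positions of motif letters in the 7 member promoter windows, from 250 bases before to 50 bases after the RefSeq start (horizontal axis, bases), 1 line per gene. Egr1 and Egr2 share a CArG box at -83 to -74 and a CRE core (orange) at -66 to -62, and Nr4a1 has 4 CRE cores.

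Klf4, a zinc finger factor best known as a reprogramming factor and as a brake on smooth muscle and cardiac growth (chromosome 5, 72283313 to 72287669), varied little within groups. It stood at 28.0, 29.2 and 29.9 FPKM with vehicle and at 35.1, 41.2 and 38.7 FPKM with perhexiline. All perhexiline libraries lay above all vehicle libraries. Its mean went from 29.0 ± 0.954 to 38.3 ± 3.07 FPKM, a 1.32-fold rise, or 0.39 on the log2 scale with an SE of 0.067 (limma adjusted p = 0.0247). The coefficient of variation of Klf4 in the vehicle libraries was 3.29%, and that of Egr1 was 12.1%. With perhexiline these were 8.01% and 33.0%. Klf4 thus passed with a smaller difference than Egr1, which did not.

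**Figure D3:**
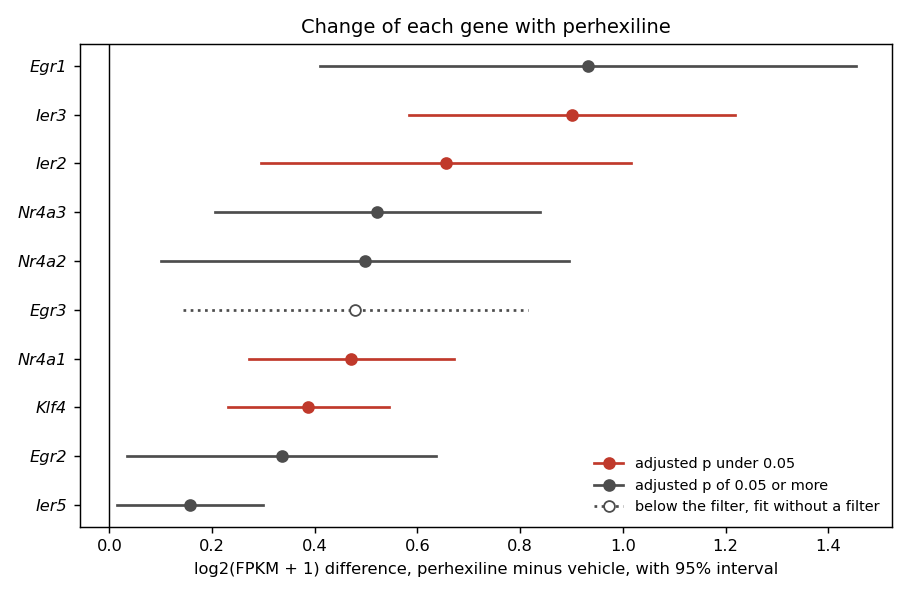
Differences on the log2(FPKM + 1) scale, perhexiline minus vehicle (horizontal axis), with 95% intervals from limma and genes ordered by size. Filled red points passed an adjusted p of 0.05, and the open point, Egr3, comes from the fit without a filter. All 10 points are above 0, from 0.16 for Ier5 to 0.93 for Egr1.

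The perhexiline libraries were ordered alike for every member: replicate 2 was highest, replicate 3 next and replicate 1 lowest in 10 of 10. Among all tested genes 18.4% had this order, and among the 478 that rose 45.2% had it. In perhexiline replicate 1 the members stood at 1.08 times (Ier5) to 1.60 times (Ier3) the vehicle mean, with a median of 1.34. In replicate 2 they stood at 1.18 times (Ier5) to 2.66 times (Egr1), with a median of 2.00, and in replicate 3 at 1.09 times (Ier5) to 2.29 times (Egr3), with a median of 1.46. In the vehicle group the members shared no order. The highest vehicle library was replicate 3 for Egr1, replicate 1 for Egr3 and replicate 2 for Nr4a1. The perhexiline order of the members also held for 14 of 27 tested early transcription factors, a list described below. It held for 17 of 39 other early response genes, 10 of 16 MAP kinase feedback genes and 9 of 25 cascade kinases. It held for 3 of 12 corepressors and partners, 2 of 14 further family genes and 1 of 14 activators. Over the 6 libraries the 36 pairs of tested members had Pearson correlations from 0.70 to 0.99, with a median of 0.91. These share the libraries and the group difference and are given as a description.

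**Figure D4:**
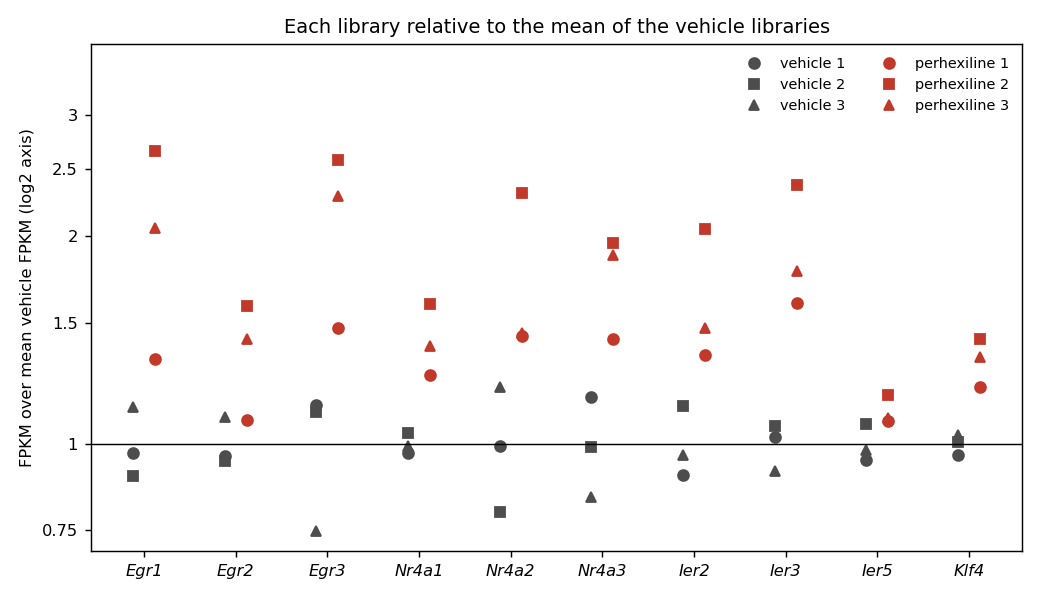
FPKM of each library divided by the mean of the 3 vehicle libraries (vertical log2 axis) for each gene, vehicle in grey and perhexiline in red, with marker shapes for the replicate number. The perhexiline libraries run in the order replicate 2, 3, 1 from top to bottom for every gene, from 2.66 for Egr1 in replicate 2 to 1.08 for Ier5 in replicate 1.

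By level, the vehicle order was Ier5, Ier3, Klf4, Egr1, Ier2, Nr4a1, Egr2, Nr4a3, Nr4a2 and Egr3. Ranges overlapped between the neighbours Ier3 and Klf4, Egr1 and Ier2, and Nr4a3 and Nr4a2, and not between the other neighbours. Ier5 lay at percentile 91.1 of tested genes in the vehicle libraries, Nr4a1 at percentile 64 and Nr4a3 at percentile 6.97. With perhexiline Egr1 stood above Klf4, and the ranges of all neighbours from Ier5 down to Nr4a1 overlapped. The gap between the 6 more abundant members and Egr2, Nr4a3, Nr4a2 and Egr3 remained.

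Within families, 9 ratios between members were compared with exact two-sided permutation tests, whose smallest p with 3 against 3 libraries is 0.1. The Egr1 to Egr2 ratio was 7.14 to 7.80 with vehicle and 9.24 to 12.6 with perhexiline. The Egr2 to Egr3 ratio was 4.44 to 7.70 with vehicle and 3.23 to 3.87 with perhexiline. It is imprecise, as Egr3 had only 16 to 26 fragments per vehicle library. Ier3 relative to Ier5 went from 0.439 to 0.507 with vehicle to 0.697 to 0.946 with perhexiline, and Ier2 relative to Ier5 from 0.290 to 0.325 to 0.382 to 0.532. These 4 ratios and Ier2 to Ier3 did not overlap between groups and had the smallest p possible, 0.1 (adjusted p = 0.18 over the 9 exact tests). Ier5 thus made up 55.6% to 57.5% of the summed FPKM of the 3 IER genes with vehicle and 40.3% to 48.1% with perhexiline. In the NR4A family all 3 ratios overlapped between groups. The Nr4a1 to Nr4a2 ratio, for example, was 12.6 and 10.3 (geometric means; exact permutation p = 0.4), and Nr4a1 held 82.1% to 87.7% of the family's summed FPKM in all 6 libraries.

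Lists of related genes were read from the same fit. In a chosen list of 15 further genes, mostly KLF factors with Egr4, Ier5l and the zinc finger relative Wt1, 4 of 14 tested genes rose and 0 fell. The list's median log2 difference was 0.12. They were Klf6 (18.8 ± 0.628 to 26.2 ± 1.75 FPKM), Klf13 (23.2 ± 0.734 to 29.0 ± 1.12), the Ier5 relative Ier5l (17.6 ± 2.74 to 25.5 ± 0.918) and Klf11 (4.42 ± 0.196 to 6.12 ± 0.448). Klf2, an endothelial flow-response factor named after its values were seen, stood at 6.43 ± 1.62 and 5.63 ± 0.403 FPKM (limma adjusted p = 0.618). Egr4, likewise named after its values were seen, was below the filter at 0.087 ± 0.040 and 0.085 ± 0.076 FPKM.

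Among AP-1, Myc and other early transcription factors 14 of 27 rose and 0 fell (median 0.39). Myc, a growth regulator, went from 9.47 ± 0.972 to 20.7 ± 2.25 FPKM, and the small Maf factor Maff from 14.2 ± 0.607 to 22.8 ± 1.61. The leucine zipper gene Tsc22d1 went from 144 ± 9.81 to 253 ± 27.6 FPKM and the inflammatory factor Cebpb from 60.8 ± 3.58 to 109.7 ± 14.8. Fos, a classic early gene that is named here after its values were seen, was not among those that passed. It stood at 12.9, 12.6 and 7.65 FPKM with vehicle and 10.4, 18.9 and 10.7 FPKM with perhexiline, and the groups overlapped (log2 difference 0.23, 95% interval -0.37 to 0.83; limma adjusted p = 0.615). Whether Fos differed from Egr1 or Nr4a1 in its response was not tested.

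Of the other early response genes, which encode no transcription factor, 11 of 39 rose and 0 fell (median 0.24). The kinase Pim1 went from 23.2 ± 2.06 to 37.1 ± 3.38 FPKM, the chemokine scavenger Ackr3 from 8.75 ± 0.527 to 12.6 ± 0.408, the prostaglandin synthase Ptgs2 from 1.96 ± 0.442 to 6.45 ± 1.97 and the coactivator-binding protein Cited2 from 65.3 ± 6.29 to 102.7 ± 12.6. Among 16 feedback inhibitors of MAP kinase signalling 2 rose and 0 fell (median 0.19). These were the phosphatases Dusp4 (23.4 ± 2.79 to 37.1 ± 2.43 FPKM) and Dusp16 (9.86 ± 0.370 to 13.5 ± 1.03).

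Known regulators of early genes were also counted. Of 14 tested SRF, ETS, CREB and MEF2 activators none rose and 1 fell, with a median of 0.11. This was Mef2c, a cardiac factor that also acts on the Nr4a1 promoter, from 19.9 ± 0.611 to 14.1 ± 0.889 FPKM. Of the 14 activators 7 had an unadjusted limma p under 0.05, in either direction. All perhexiline libraries lay above all vehicle libraries for 6 of them, against 17.0% of tested genes, and below for 2. Among 12 corepressors and partners 1 rose and 0 fell (median 0.05). It was Nab2, which binds EGR proteins and represses them and is itself an EGR target, from 11.4 ± 0.482 to 14.7 ± 1.18 FPKM. None of the 25 tested kinases of the ERK, p38 and JNK cascades passed, and 3 had an unadjusted limma p under 0.05. The most abundant was Mapkapk2, a kinase downstream of p38, at 113 ± 4.08 FPKM with vehicle and 113 ± 1.62 FPKM with perhexiline.

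**Figure D5:**
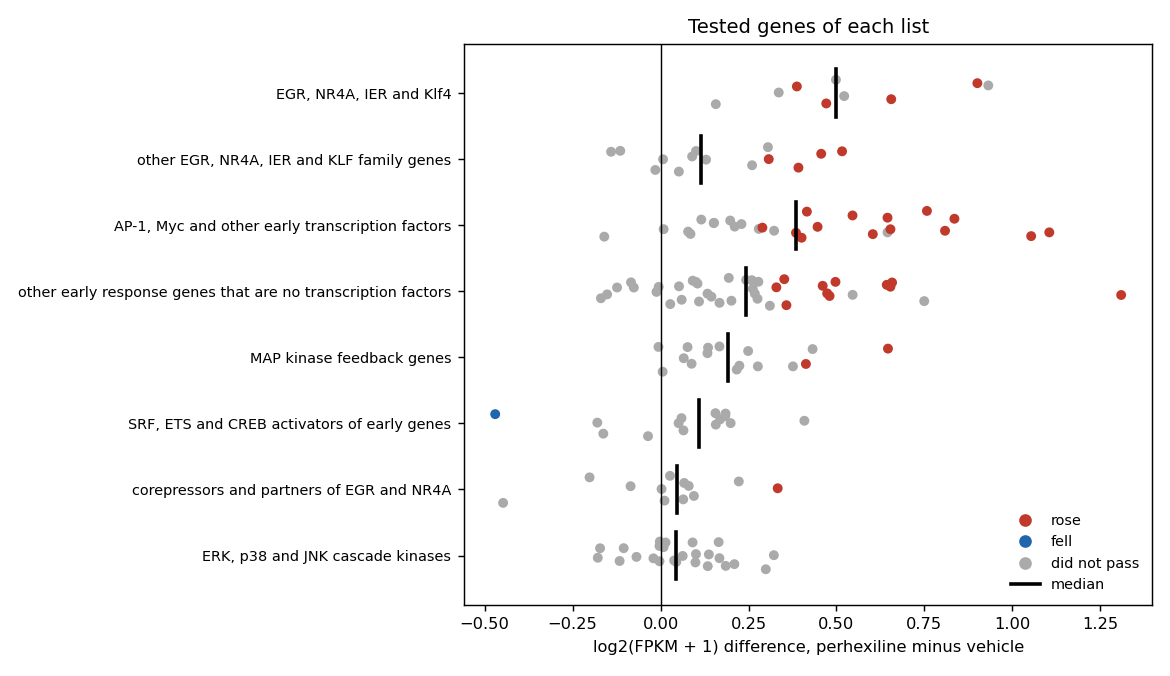
Differences on the log2(FPKM + 1) scale (horizontal axis) of all tested genes of the member list and 7 related lists, 1 point per gene, red for a rise, blue for a fall, grey where the test was not passed, and a black bar for the list median. The median is 0.50 for the members, 0.39 for AP-1, Myc and other early factors and 0.04 for the cascade kinases.

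These counts also changed when 1 library was left out, as did those over all genes. The rises among early transcription factors numbered 6 and 5 with vehicle replicate 1 or 2 left out, and 4 and 5 with perhexiline replicate 2 or 3 left out. In the same 4 fits those among the other early response genes numbered 2, 1, 1 and 0, and 6 without vehicle replicate 3, while the listed family genes had 0, 1, 0 and 0 rises and 2 without vehicle replicate 3. The MAP kinase feedback genes had 0, 1, 0 and 0 rises. Where perhexiline replicate 1 was left out, the other early response genes still had 11 rises and the feedback genes 2, and 1 cascade kinase rose. Without vehicle replicate 3 the feedback genes had 2 rises and the SRF, ETS and CREB list 1. Mef2c did not pass where vehicle replicate 1 or perhexiline replicate 3 was left out. No corepressor or partner passed in 5 of the 6 fits, the exception being the fit lacking perhexiline replicate 1, with 1 rise.

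By the rule of likeness, the 5 non-members whose values over the 6 libraries followed the mean standardised profile of the tested members most closely were Ccdc86, the apoptosis adaptor Fadd, Rbm33, the clock regulator Cipc and Usp3. Their Pearson correlations with it ran from 0.996 to 0.998 over the 6 libraries, given as a description. The rule picks genes that follow the members, so it fixed their direction in advance and no p is given. Fadd went from 5.53 ± 0.0374 to 8.17 ± 1.08 FPKM and Ccdc86 from 19.2 ± 0.564 to 25.8 ± 3.39. Rbm33 went from 20.1 ± 0.121 to 23.5 ± 1.56 FPKM, Cipc from 27.9 ± 0.448 to 32.3 ± 1.67 and Usp3 from 16.5 ± 0.344 to 19.5 ± 1.35.

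Markers of cardiomyocytes were abundant in every library, with a summed level over 11 markers of 19131 to 23422 FPKM with vehicle and 15756 to 18299 FPKM with perhexiline, and 4 of the 11 fell (Tnni3, Myh6, Actn2 and Myl2) and none rose. Markers of other cell types were detected too. Of 10 fibroblast markers 2 rose (Dcn and Pdgfra) and 1 fell (Col3a1), with sums of 1065.5 to 1107 and 1023 to 1071 FPKM. Of 8 tested macrophage and leukocyte markers 2 fell (Mrc1 and C1qa), with sums over 13 markers of 47.4 to 53.3 and 29.3 to 42.2 FPKM. Cd3e was listed at 0. Cd79a was not found by its own symbol. Cd79al, taken in its place as an older symbol, was also listed at 0 and may be another gene. Smooth muscle and pericyte markers summed to 786 to 1118 and 606 to 799 FPKM with none of 7 passing, and of 4 tested endothelial markers Eng rose (sums 77.8 to 84.2 and 95.8 to 96.2 FPKM). None of 3 tested Schwann cell and neuron markers and none of 5 epicardial markers passed. The part of these shifts in the rises of the early genes was not tested. Recovered fragments numbered 13616252 to 15241994 per vehicle library and 14863929 to 16702523 per perhexiline library.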

How the data were processed

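Libraries of poly(A) RNA were grouped by their titles. The deposited table gives FPKM per gene and library, computed by the authors per the file headers, beside a gene length. The submitters' processing notes name HISAT2 (2.0.5) and DESeq2 without their roles. No source used here gives the genome build, annotation, counter or strand setting, so reads of near-identical copies or antisense partners cannot be told apart. No annotated gene overlapped a member in the deposited coordinates. FPKM times length was a whole multiple of 1 step per library for 100% of positive values (tolerance 0.01), and these multiples were taken as fragments. A listed 0 can be a failed estimate.

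The test was limma (3.58.1, under R 4.3.3; mean-variance trend, two-sided, group as the only term) on log2 of FPKM plus a pseudocount of 1, for genes reaching 1 FPKM in 3 or more libraries. Intervals cover the spread between these libraries. The members and lists were chosen with earlier results of these data known. Of 156 symbols in 7 related lists 153 were matched. Named genes were the members, for each list up to 4 passing genes by adjusted p (failing any, the 2 of highest level), and the 5 most alike non-members with a mean FPKM of at least 5. One gene that this rule names is not reported here. Promoters came from RefSeq, GRCr8. The fits were tested on simulated data. Alternatives were other pseudocounts, filters, scalings, limma-voom on recovered fragments, robust fitting, the replicate block and each library left out.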

Additional observations from a re-analysis of the deposited data

How the results depend on the processing

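The 9 tested members kept a difference above 0 in every alternative fit that tested them, as did Egr3 in the fit without a filter. The number of members that rose was 4, and it fell to 0 once all genes were tested unfiltered. It was 2 with the replicate number as a block. Without 1 library it ranged from 0 to 5. It was 6 under total-fragment scaling and with limma-voom. Of all genes 896 passed, 53.3% of them higher. With no filter 162 passed, with limma-voom 1570 and with the replicate block 173, and without 1 library from 87 to 841. Upper-quartile scaling gave 42.4% higher among those passing, and scaling by total fragments 71.0%. Of the genes in the related lists 33 passed, against 9 with no filter and 10 with the replicate block, and from 5 to 30 without 1 library. The number of members without overlap ranged from 8 under upper-quartile scaling to 10 under total-fragment scaling and without vehicle replicate 3 or perhexiline replicate 1. The cause of these changes was not tested. In the fits that leave 1 out, fewer libraries cannot be told apart from the library dropped. Same-numbered libraries of the groups did not deviate together (correlations across genes of -0.0228, -0.101 and -0.0387), so the numbers were not taken to pair them. The few fragments of Egr3, Nr4a2 and Nr4a3 limit their precision.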
